A study of Mus musculus with 9 samples.

Results

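The genes described here encode the enzymes and complex subunits that write, erase or organise chromatin marks: DNA methyltransferases, TET dioxygenases, histone methyltransferases, demethylases, deacetylases and acetyltransferases, subunits of chromatin remodelling complexes, and the genome organiser Satb1. The list holds 43 gene symbols, chosen by name and not by a cutoff on a measured value, though with earlier results of these data known. All 43 were among the 22017 symbols of the table, and 42 were among the 10538 genes that reached 1 FPKM in at least 3 of the 9 libraries and were tested. FPKM gives the fragments of a gene relative to its transcript length and to all fragments mapped in that library. It is a level per length, so levels of different genes are set side by side on that scale.

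RNA was sequenced from T cells of the spleens of wild-type C57BL/6 mice, in 3 groups of 3 libraries. Cells of every group were activated through CD3 and CD28 for 3 days, given IL-2 from day 5, activated again on day 7 with less antibody, and taken on day 10. The Th17-derived Th1 group (labelled Th17-1) was grown in the Th17 condition and moved to the Th1 condition at the second activation. The Th1 group (labelled Th1-1) had IL-12 and antibody against IL-4 throughout, and the Th17 group (labelled Th17-17) had TGF-beta, IL-6 and IL-1beta, with IL-4, IL-12 and interferon-gamma blocked by antibody. The Th17 group therefore differed from both other groups in its cytokines on the day of collection. Its condition before day 7 was that of the Th17-derived Th1 group, and differed from that of the Th1 group.

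Methylation of cytosine in DNA is placed by Dnmt3a and Dnmt3b, copied to new strands by Dnmt1, and oxidised by the TET enzymes on the way to its removal. Histone H3 is methylated at lysines that mark active genes (H3K4, H3K36, H3K79) or silent ones (H3K9, H3K27), and acetyl groups are added by acetyltransferases such as Ep300 and taken off by deacetylases. In helper T cells these marks are known to build up or be lost at cytokine genes such as Ifng and Il17a while a cell commits to a fate, and their enzymes are studied for how firmly that fate is held.

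The libraries summed to between 382581 and 405985 FPKM, their read depth is unknown, and libraries of 1 group correlated across genes at 0.964 to 0.993. The labels do not say whether replicates came from separate mice or cultures, so p-values measure the spread between these libraries, which may be technical. The 10 T cell identity markers, most of them shared by helper and CD8 T cells, summed to between 1248 and 1501 FPKM in every library. Replicate 3 of each group held more Cd8a than the other libraries, at 104.1 to 140.6 FPKM against 15.3 to 54.9 FPKM. In replicate 3, Cd4 was at 96.9 FPKM in Th17-derived Th1, 57.2 FPKM in Th1 and 52.9 FPKM in Th17. The other libraries held 81.1 to 123.6 FPKM of Cd4. The neutrophil list summed to 9.38 to 34.7 FPKM in Th17-derived Th1 libraries, 2.27 to 3.14 FPKM in Th1 libraries and 0.0761 to 0.745 FPKM in Th17 libraries, with 5 of its 6 genes below 1 FPKM everywhere. The NK cell list summed to 2.20 to 7.98 FPKM in Th17-derived Th1 libraries, 3.61 to 7.62 FPKM in Th1 libraries and 8.71 to 19.5 FPKM in Th17 libraries, where it was highest. The B cell list was also highest in Th17 libraries, at 1.45 to 2.52 FPKM in Th17-derived Th1, 0.957 to 2.11 FPKM in Th1 and 3.096 to 4.09 FPKM in Th17. So were the 2 listed of 4 gamma-delta T cell genes, which summed to 0.487 to 0.927 FPKM in Th17-derived Th1, 0 to 0.176 FPKM in Th1 and 1.47 to 2.05 FPKM in Th17. Th1 lay above Th17 without overlap for the macrophage and monocyte list, at 3.62 to 6.84 FPKM in Th17-derived Th1, 3.71 to 11.8 FPKM in Th1 and 1.43 to 2.92 FPKM in Th17, with 5 of its 6 genes below 1 FPKM everywhere. Th1 was likewise above Th17 for the dendritic cell list, at 1.92 to 4.75 FPKM in Th17-derived Th1, 4.16 to 9.03 FPKM in Th1 and 2.103 to 4.06 FPKM in Th17, and for the mast cell and basophil list, at 0 to 0.120 FPKM in Th17-derived Th1, 0.295 to 1.11 FPKM in Th1 and 0 to 0.173 FPKM in Th17. The erythroid list overlapped in all comparisons and stayed below 1 FPKM. The part of these cells in the results below was not tested. In RNA from a whole culture, fewer cells of a type and less RNA per cell cannot be told apart.

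Th1 replicate 2 stood apart: for 40 of the 42 tested members it lay outside the other libraries of its group, lowest in 23 and highest in 17. Th17-derived Th1 replicate 3 lay outside the others of its group for 38 members, and the remaining libraries for 19 to 31. The median absolute log2 deviation of Th1 replicate 2 from the others of its group was 0.26 over members and 0.254 over all genes. For Th17-derived Th1 replicate 3 it was 0.197 and 0.199, so these departures were not particular to the members. Counts without Th1 replicate 2 are given beside the main counts.

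Most members were well expressed. The mean over the 9 libraries was at least 50 FPKM for 8 members, between 10 and 50 FPKM for 26, and between 1 and 10 FPKM for 8. The range over libraries differed between members: the highest library was under 1.5 times the lowest for 12 members, and at least 2 times the lowest for 14. Tet1 was the 1 member below 1 FPKM in all libraries, at 0.408, 0.469 and 0.819 FPKM in Th17-derived Th1, 0.558, 0.347 and 0.599 FPKM in Th1, and 0.337, 0.186 and 0.229 FPKM in Th17, and it was not tested.

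The clearest difference was between Th1 and Th17 cells, where 24 members fell and 2 rose in Th1. Eed and Kdm5b rose. Among those that fell were the DNA methylation enzymes Dnmt1, Dnmt3b, Tet2 and Tet3, the H3K27 demethylase Kdm6b, 4 of the 5 H3K4 methyltransferases, and all 4 acetyltransferases. All tests used limma on log2(FPKM + 1) in a fit of all 9 libraries, with p-values adjusted over the 10538 genes and a threshold of 0.05. The 24 are 57.1% of the members, and 28.9% of all tested genes were called lower in Th1. Calls of higher genes ran the other way, at 2 of 42 members against 14% of all genes. The median log2 difference of Th1 minus Th17 was -0.39 over the members and -0.17 over all genes. Below 0 lay 36 of 42 members and 6880 of 10538 genes. Without Th1 replicate 2 the counts were 22 lower and 4 higher, or 52.4% and 9.52%, beside 35.7% and 15.9% of all genes. Without Th17 replicate 2 they were 15 and 2, or 35.7% and 4.76%, beside 18.6% and 10.3%. Without Th1 replicate 3 they were 16 and 1, or 38.1% and 2.38%, beside 19.6% and 10.4%.

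The level of the whole table bears on this count. When libraries were scaled by the median ratio, which moved the median of all genes in Th1 minus Th17 to -0.01, 11 members were lower and 5 higher in Th1, that is 26.2% and 11.9%, and the share of all genes was 16.6% lower and 19.4% higher. Of all calls in this comparison, 32.7% were of genes higher in Th1 as deposited, against 53.9% after median-ratio scaling and 45.7% after quantile normalization. The median of the members stayed below 0 after median-ratio scaling, at -0.23. The members called higher under it were Eed, Kdm5b, Dnmt3a, Kdm2b and Kdm4a.

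Th17-derived Th1 cells differed from Th17 cells in fewer members: 5 fell (Dnmt3b, Tet3, Kdm6b, Kmt2c and Kmt2d) and 0 rose. The 5 are 11.9% of the members, close to the 9.49% of all genes called lower, and 6.43% of all genes were called higher. At an unadjusted limma p below 0.05 there were 14 lower and 2 higher, or 33.3% and 4.76%, beside 22.4% and 10.9% of all genes. The median log2 difference was -0.17 over the members and -0.12 over all genes. Without Th1 replicate 2, which enters this comparison only through the shared estimate of the spread, 9 members were lower and 2 higher. Those are 21.4% and 4.76%, beside 13.9% and 8.49% of all genes. There were 2 lower without Th17 replicate 1 or 2 (4.76%, beside 3.13% and 2.9% of all genes). There were 3 lower without Th17-derived Th1 replicate 1 or 2 (7.14%, beside 3.97% and 4.98%). Without Th1 replicate 1, 2 were higher (4.76%, beside 6.32%), and without Th17 replicate 3, 1 was higher (2.38%, beside 6.75%). Median-ratio scaling gave 3 lower and 1 higher (Eed), or 7.14% and 2.38% beside 4.73% and 8.09% of all genes, and turned the share of higher genes among all calls to 63.1%, against 40.4% as deposited.

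Against Th1 cells, 4 members rose in Th17-derived Th1 cells (Satb1, Kat2b, Ep300 and Kdm6b) and 0 fell. The 4 are 9.52% of the members, against 5.67% of all genes called higher and 4.81% called lower. At an unadjusted limma p below 0.05 there were 15 higher and 2 lower, or 35.7% and 4.76%, beside 14.8% and 11.7% of all genes. The median log2 difference was 0.18 over the members and 0.05 over all genes. Above 0 lay 34 of 42 members and 6095 of 10538 genes. Without Th1 replicate 2, 7 members were higher and 2 lower, or 16.7% and 4.76%, beside 10.2% and 7.58% of all genes. Without Th17-derived Th1 replicate 1 or 2 or Th1 replicate 3, 2 were higher (4.76%). The shares of all genes there were 2.26%, 1.86% and 2.29%. After median-ratio scaling 4 were higher and 0 lower, beside 4.87% and 5.84% of all genes. The 3 comparisons share libraries, so their values are set side by side and not counted as separate support.

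**Figure D1:**
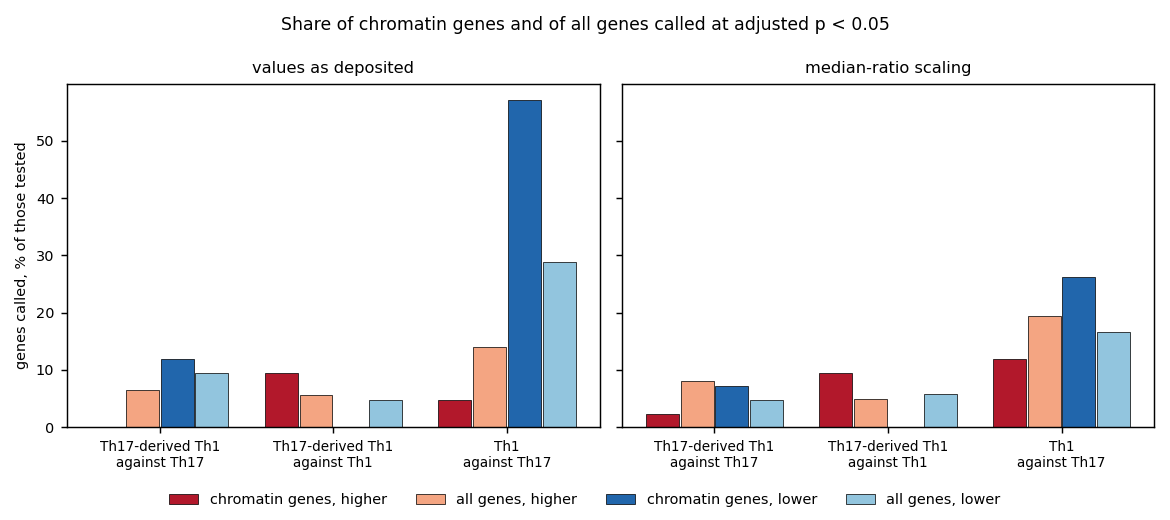
Share of the 42 tested members and of all 10538 tested genes called higher or lower by limma in each comparison (y axis, percent), as deposited and after median-ratio scaling. In Th1 against Th17 the lower share of members is 57.1% beside 28.9% of all genes as deposited, and 26.2% beside 16.6% after median-ratio scaling.

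By group means of log2(FPKM + 1) as deposited, Th1 was the lowest of the 3 groups for 33 of the 42 members, or 78.6%, against 50.3% of all tested genes. Th17 was the highest for 29 members, or 69%, against 57.6% of all genes. Th17-derived Th1 lay between the other groups for 30 members, or 71.4%, against 60.4% of all genes. It was the highest group for 8 members, which were Tet2, Kmt2a, Suv39h1, Hdac4, Hdac7, Ep300, Kat2b and Satb1, though only 3 of these passed the test against Th1 and 0 against Th17. For Kat2b the order turns on the plain scale, where its mean was 17.27 FPKM in Th17-derived Th1 and 17.33 FPKM in Th17. These orders were not recounted after median-ratio scaling, which turned the sign of some log2 differences. Th1 minus Th17 moved from -0.04 to 0.13 for Hdac1 and from -0.15 to 0.02 for Ehmt2. Th17-derived Th1 minus Th17 moved from -0.03 to 0.09 for Ezh2. In all, 27 members were called in at least 1 comparison, 20 of them in exactly 1, and Kdm6b in all 3.

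**Figure D2:**
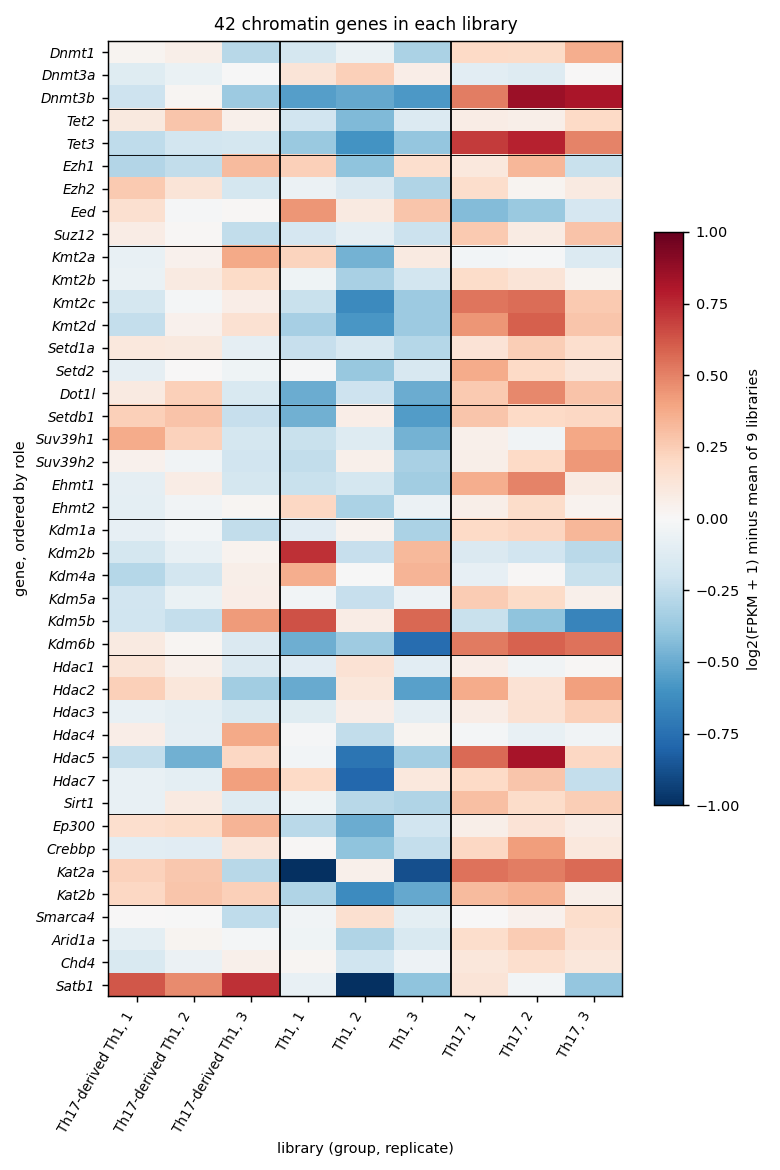
log2(FPKM + 1) of the 42 tested members in each of the 9 libraries, as the difference from the member's mean over all libraries (color, log2 units), with members in rows by role and libraries in columns by group. As deposited, the Th1 columns hold the lowest group mean for 33 members and the Th17 columns the highest for 29. Th1 replicate 2 departs from its group in 40 members.

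The promoters of the members with the largest called difference in each direction are shown to place these results on sequence. RefSeq windows of 300 bases (GRCm38.p6), which run from upstream of a transcription start to just past it, were matched for 38 of the 43 members, in 57 windows. Kdm5a, Kmt2b, Hdac3, Hdac1 and Kdm6b had none. Capitals mark matches, on either strand, to 8 motifs: the CCAAT box, the TATA box spelled TATAAA, the GC box spelled GGGCGG, the E2F sites TTTCCCGC and also TTTGGCGC, the ETS site CCGGAAGT, the cyclic AMP response element TGACGTCA, and the NRF1 core GCATGCGC. On the other strand the GC box reads CCGCCC. Dnmt3b and Kat2a had the largest called falls, and Satb1 and Kdm5b the largest called rises. Each sequence runs 5′ to 3′ along the gene.
Dnmt3b: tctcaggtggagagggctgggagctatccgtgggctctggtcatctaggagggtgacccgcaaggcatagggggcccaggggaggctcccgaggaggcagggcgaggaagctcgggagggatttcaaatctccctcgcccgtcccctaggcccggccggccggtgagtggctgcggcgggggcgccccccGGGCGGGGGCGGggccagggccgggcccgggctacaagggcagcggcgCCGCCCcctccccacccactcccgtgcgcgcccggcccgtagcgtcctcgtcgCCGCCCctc
Kat2a: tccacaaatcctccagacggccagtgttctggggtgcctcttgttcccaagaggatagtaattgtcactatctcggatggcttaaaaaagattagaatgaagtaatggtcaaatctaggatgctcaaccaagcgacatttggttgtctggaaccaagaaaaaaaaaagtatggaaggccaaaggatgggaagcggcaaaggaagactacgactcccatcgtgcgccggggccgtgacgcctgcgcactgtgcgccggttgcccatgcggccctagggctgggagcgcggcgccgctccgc
Satb1: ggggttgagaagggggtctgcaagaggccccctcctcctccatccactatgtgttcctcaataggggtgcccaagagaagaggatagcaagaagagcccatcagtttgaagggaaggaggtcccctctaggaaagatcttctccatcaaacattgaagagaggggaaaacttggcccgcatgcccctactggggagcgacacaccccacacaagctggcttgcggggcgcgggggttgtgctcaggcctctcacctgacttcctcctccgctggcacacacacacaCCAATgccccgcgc
Kdm5b: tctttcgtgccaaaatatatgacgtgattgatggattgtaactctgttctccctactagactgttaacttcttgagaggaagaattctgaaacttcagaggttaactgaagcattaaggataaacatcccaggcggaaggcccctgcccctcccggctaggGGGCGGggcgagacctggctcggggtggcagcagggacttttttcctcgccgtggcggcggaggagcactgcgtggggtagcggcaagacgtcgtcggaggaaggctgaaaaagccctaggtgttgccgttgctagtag

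The Dnmt3b window lies at chr2:153649199-153649498 on the plus strand and holds 4 matches, all of GGGCGG, and 30 CG pairs. The Kat2a window, chr11:100712418-100712717 on the minus strand, has no match and 19 CG pairs. The Satb1 window, chr17:51833241-51833540 on the minus strand, is the most upstream of 5 for that gene and has 1 match, of CCAAT, and 8 CG pairs. The Kdm5b window, chr1:134559928-134560227 on the plus strand, has 1 match of GGGCGG and 17 CG pairs.

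Member promoters were rich in CG, with a median of 29 CG pairs in a window, against 21 in the windows of all tested genes and 7 in all 32851 windows of the table. GGGCGG was in 66.7% of member windows, 63.5% of the windows of tested genes and 35.7% of all windows. TATAAA was in 0 of 57 member windows, against 6.62% of the windows of tested genes and 13.6% of all windows. CCAAT was in 31.6% of member windows, 38.1% of the windows of tested genes and 37.4% of all windows. The other 5 motifs were in at most 5.26% of member windows. In member windows and windows of tested genes, the shares were 3.51% and 2.15% for TTTCCCGC, and 3.51% and 1.02% for TTTGGCGC. They were 0% and 8.98% for CCGGAAGT, 1.75% and 3.24% for TGACGTCA, and 5.26% and 5.64% for GCATGCGC.

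Among the DNA methyltransferases, Dnmt3b, which sets new methylation, differed most between the groups. Dnmt3b was at 1.90, 2.39 and 1.61 FPKM in Th17-derived Th1 libraries, 1.29, 1.35 and 1.25 FPKM in Th1 libraries, and 3.77, 5.06 and 4.90 FPKM in Th17 libraries. The 3 groups did not overlap: Th17 libraries were highest, Th1 lowest, and Th17-derived Th1 between them. Dnmt3b fell in Th17-derived Th1 against Th17 (log2 difference -0.91, SE 0.14, limma adjusted p = 0.0030) and in Th1 against Th17 (-1.27, SE 0.14, limma adjusted p = 0.00026). Its difference between Th17-derived Th1 and Th1, 0.36, did not pass (limma adjusted p = 0.13), although the libraries did not overlap. At these levels the pseudocount of 1 shrinks the difference: the means were 1.97 FPKM in Th17-derived Th1, 1.30 FPKM in Th1 and 4.58 FPKM in Th17.

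Dnmt1, the maintenance methyltransferase, was far more abundant, at 76.5 ± 9.63 FPKM in Th17-derived Th1, 69.9 ± 6.09 FPKM in Th1 and 95.1 ± 6.43 FPKM in Th17 (SD, n = 3 each). It fell in Th1 against Th17 (log2 difference -0.44, limma adjusted p = 0.014), but not without Th1 replicate 3 (-0.38, limma adjusted p = 0.056) nor after median-ratio scaling (-0.27, limma adjusted p = 0.060). Dnmt3a stayed within 8.49 to 11.25 FPKM over all libraries and was called in 0 of the 3 comparisons. Its difference of Th1 minus Th17 was 0.22, with a limma adjusted p of 0.073 as deposited and 0.0095 after median-ratio scaling.

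The balance among the DNA methyltransferases was taken as a ratio within each library, on which a factor shared by all genes of a library acts only through the pseudocount. The log2 ratio of Dnmt3a to Dnmt3b, each plus 1 FPKM, was 1.75 ± 0.22 in Th17-derived Th1, 2.32 ± 0.05 in Th1 and 0.83 ± 0.18 in Th17 (SD, n = 3 each). The log2 ratio of Dnmt1 to Dnmt3a was 2.96 ± 0.24 in Th17-derived Th1, 2.62 ± 0.04 in Th1 and 3.28 ± 0.02 in Th17 (SD, n = 3 each). For both ratios no group overlapped another. Each of these 6 comparisons reached the smallest p that 3 against 3 libraries allow, 0.1 by an exact two-sided permutation test, or 0.21 adjusted over the 21 ratio comparisons, so none could pass 0.05. As plain FPKM ratios, a Th17-derived Th1 library held 3.73 to 5.82 times as much Dnmt3a as Dnmt3b, a Th1 library 7.92 to 8.33 times, and a Th17 library 1.68 to 2.29 times.

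**Figure D3:**
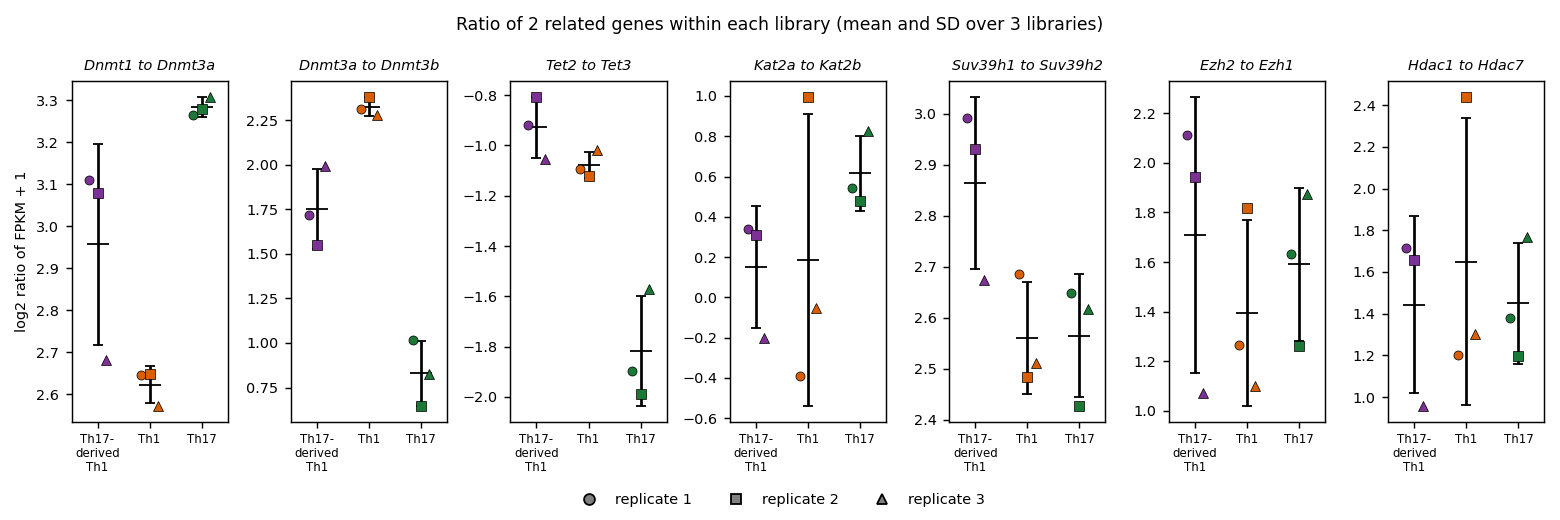
log2 ratio of 7 pairs of related members within each library (y axis, log2 of FPKM + 1 over FPKM + 1), with a point per library and the mean ± SD of each group. The 3 groups are apart for Dnmt3a to Dnmt3b and for Dnmt1 to Dnmt3a, and overlap in all comparisons for Ezh2 to Ezh1 and Hdac1 to Hdac7.

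TET dioxygenases oxidise methylated cytosine, and Tet3 differed more between the groups than Tet2, the other one tested. Tet3 (GRCm38 chr6:83362373-83459084, minus strand) was at 12.6, 13.2 and 13.3 FPKM in Th17-derived Th1 libraries, 11.5, 9.71 and 11.3 FPKM in Th1 libraries, and 25.2, 26.6 and 21.8 FPKM in Th17 libraries. Every Th17 library was above every other library, and Th17-derived Th1 lay above Th1 without overlap. Tet3 fell in Th17-derived Th1 against Th17 (log2 difference -0.86, SE 0.10, limma adjusted p = 0.0010) and in Th1 against Th17 (-1.11, SE 0.10, limma adjusted p = 0.00012). The difference of 0.25 between Th17-derived Th1 and Th1 did not pass (limma adjusted p = 0.17). These falls of Tet3 and Dnmt3b held in every alternative in which the gene was tested.

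Tet2, which is recurrently mutated in human T cell lymphoma, followed another course. Its mean was 6.40 ± 0.63 FPKM in Th17-derived Th1, 4.62 ± 0.62 FPKM in Th1 and 6.23 ± 0.40 FPKM in Th17 (SD, n = 3 each). It fell in Th1 against Th17 (log2 difference -0.37, limma adjusted p = 0.030), and differed by 0.40 between Th17-derived Th1 and Th1 with no overlap but a limma adjusted p of 0.059. The fall did not pass without Th1 replicate 1 or 2 or without any 1 Th17 replicate (limma adjusted p 0.050 to 0.084), nor after median-ratio scaling (-0.22, limma adjusted p = 0.18). The log2 ratio of Tet2 to Tet3 was -0.93 ± 0.12 in Th17-derived Th1, -1.08 ± 0.05 in Th1 and -1.82 ± 0.22 in Th17 (SD, n = 3 each). Both groups collected in the Th1 condition were above Th17 without overlap (exact two-sided permutation p = 0.1 each, 0.21 adjusted).

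Polycomb repressive complex PRC2 methylates H3K27, with Ezh2 or Ezh1 as its catalytic subunit and Eed and Suz12 as core partners. Eed (GRCm38 chr7:89954654-89980983, minus strand), the subunit that reads the mark, was at 47.0, 41.5 and 42.3 FPKM in Th17-derived Th1, 57.4, 44.7 and 50.9 FPKM in Th1, and 30.7, 32.2 and 37.2 FPKM in Th17. All Th17 libraries were below the others, and the ranges of Th17-derived Th1 and Th1 overlapped. Eed rose in Th1 against Th17 (log2 difference 0.59, SE 0.12, limma adjusted p = 0.0039). Its difference between Th17-derived Th1 and Th17, 0.38, fell short as deposited (limma adjusted p = 0.054) and passed after median-ratio scaling (limma adjusted p = 0.028).

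Of the other PRC2 subunits, Suz12 fell in Th1, at 46.2 ± 2.06 FPKM, against Th17 at 60.1 ± 4.64 FPKM (SD, n = 3 each, log2 difference -0.37, limma adjusted p = 0.021). The call was lost without Th1 replicate 1 or 3 or Th17 replicate 1 or 3 (limma adjusted p 0.053 to 0.074) and after median-ratio scaling (-0.20, limma adjusted p = 0.13). Ezh2 lay between 45.8 and 67.8 FPKM and Ezh1 between 13.7 and 23.5 FPKM over all libraries, with no call. The log2 ratio of Ezh2 to Ezh1 overlapped between groups in all 3 comparisons.

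Of the H3K4 methyltransferases, Kmt2c and Kmt2d, which act at enhancers, showed the largest differences. Kmt2d was at 17.7, 21.7 and 23.5 FPKM in Th17-derived Th1, 16.5, 13.7 and 16.1 FPKM in Th1, and 28.8, 32.3 and 25.7 FPKM in Th17. Kmt2c was at 12.5, 14.1 and 15.0 FPKM in Th17-derived Th1, 12.1, 8.83 and 10.9 FPKM in Th1, and 21.2, 21.5 and 17.4 FPKM in Th17. For both genes the 3 groups did not overlap, with Th17 highest and Th1 lowest. In Th1 against Th17 both fell, Kmt2d by 0.86 (SE 0.13, limma adjusted p = 0.0013) and Kmt2c by 0.86 (SE 0.13, limma adjusted p = 0.0014) on the log2 scale, under every alternative run.

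In Th17-derived Th1 against Th17 the same genes fell by 0.45 for Kmt2d and 0.50 for Kmt2c on the log2 scale (limma adjusted p = 0.048 and 0.036). These calls were close to the threshold. That of Kmt2d was lost without Th17-derived Th1 replicate 1 or 2, Th1 replicate 1 or 3, or Th17 replicate 1 or 2 (limma adjusted p 0.061 to 0.17). That of Kmt2c was lost without any 1 Th17-derived Th1 replicate, Th1 replicate 3, or Th17 replicate 1 or 2 (limma adjusted p 0.054 to 0.14). After median-ratio scaling neither passed (limma adjusted p = 0.16 for Kmt2d and 0.12 for Kmt2c).

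Setd1a, the catalytic subunit of a promoter-bound H3K4 complex, fell in Th1, at 14.3 ± 0.68 FPKM, against 19.4 ± 0.79 FPKM in Th17 (SD, n = 3 each, log2 difference -0.41, limma adjusted p = 0.0065), under every alternative run. Kmt2b was at 20.8 ± 2.10 FPKM in Th1 and 25.8 ± 1.501 FPKM in Th17 (SD, n = 3 each, limma adjusted p = 0.048). Its call was lost without any 1 of 7 libraries, which were all but Th17-derived Th1 replicate 3 and Th1 replicate 1 (limma adjusted p 0.052 to 0.15). Kmt2a ranged from 17.9 to 33.0 FPKM with no call.

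Dot1l, the H3K79 methyltransferase, was at 20.2, 22.5 and 16.9 FPKM in Th17-derived Th1, 13.1, 16.3 and 13.1 FPKM in Th1, and 22.9, 26.8 and 23.2 FPKM in Th17. The groups were again apart, with Th17-derived Th1 between Th1, the lowest, and Th17, the highest. Dot1l fell in Th1 against Th17 (log2 difference -0.74, SE 0.13, limma adjusted p = 0.0025), and its difference of 0.46 between Th17-derived Th1 and Th1 was just short (limma adjusted p = 0.057). Setd2, which trimethylates H3K36 behind elongating polymerase, fell in Th1 at 17.0 ± 2.28 FPKM against 22.9 ± 2.19 FPKM in Th17 (SD, n = 3 each, log2 difference -0.42, limma adjusted p = 0.017). That call was lost without Th17 replicate 1 (-0.34, limma adjusted p = 0.072) and after median-ratio scaling (-0.25, limma adjusted p = 0.14).

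Enzymes that methylate H3K9, a mark of silent chromatin, fell in Th1 against Th17 for 3 of 5 members, beside 28.9% of all genes. They were not called in the other comparisons, and only Ehmt1 kept its call after median-ratio scaling. Ehmt1, partner of Ehmt2 in a dimethylating complex, was at 11.5, 13.0 and 10.8 FPKM in Th17-derived Th1, 10.4, 10.8 and 9.42 FPKM in Th1, and 16.1, 17.7 and 13.1 FPKM in Th17. Every Th17 library was above the others, and the ranges of Th17-derived Th1 and Th1 overlapped. Ehmt1 fell in Th1 (log2 difference -0.57, SE 0.12, limma adjusted p = 0.0067) under every alternative run, whereas Ehmt2, at 44.4 to 64.2 FPKM, was not called.

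Setdb1, which silences repeated elements, was at 15.7, 16.3 and 11.1 FPKM in Th17-derived Th1, 9.199, 13.9 and 8.64 FPKM in Th1, and 16.2, 15.4 and 15.4 FPKM in Th17. Th1 replicate 2 was well above the other Th1 libraries, and Th17-derived Th1 overlapped both other groups. Setdb1 fell in Th1 against Th17 (log2 difference -0.55, SE 0.19, limma adjusted p = 0.039). Suv39h2 fell with it, at 3.21 ± 0.58 FPKM in Th1 and 4.58 ± 0.74 FPKM in Th17 (SD, n = 3 each, log2 difference -0.41, limma adjusted p = 0.044). Each of these calls was lost in 6 of the 9 fits that left out 1 library. For Setdb1 these were Th17-derived Th1 replicate 1, Th1 replicates 1 and 3 and each Th17 replicate (limma adjusted p 0.051 to 0.13). For Suv39h2 they were Th17-derived Th1 replicates 1 and 2, Th1 replicates 1 and 3 and Th17 replicates 2 and 3 (limma adjusted p 0.059 to 0.15). Median-ratio scaling ended both (limma adjusted p = 0.099 and 0.14). Suv39h1 ranged from 20.5 to 38.1 FPKM with no call.

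Kdm6b (GRCm38 chr11:69398508-69413675, minus strand), a demethylase that removes the H3K27 mark set by PRC2, was the 1 member called in all 3 comparisons. It was at 4.24, 3.98 and 3.46 FPKM in Th17-derived Th1, 2.51, 2.85 and 1.90 FPKM in Th1, and 6.08, 6.41 and 6.18 FPKM in Th17. No group overlapped another, and Th17-derived Th1 lay between the others. Kdm6b fell in Th17-derived Th1 against Th17 (log2 difference -0.57, SE 0.13, limma adjusted p = 0.017), rose against Th1 (0.52, SE 0.13, limma adjusted p = 0.032), and fell in Th1 against Th17 (-1.09, SE 0.13, limma adjusted p = 0.00034). The last of these held under every alternative run. The first was lost without Th17-derived Th1 replicate 3 or Th17 replicate 1 or 2 (limma adjusted p 0.057 to 0.075), and the second without Th17-derived Th1 replicate 1 or 2, Th1 replicate 1 or 3, or Th17 replicate 1 or 2 (limma adjusted p 0.055 to 0.12).

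Kdm5b, which removes H3K4 methylation, was 1 of the 2 members that rose in Th1. It was at 3.72, 3.599 and 6.28 FPKM in Th17-derived Th1, 7.41, 4.68 and 7.06 FPKM in Th1, and 3.65, 3.11 and 2.43 FPKM in Th17. Th1 lay above Th17 without overlap, and Th17-derived Th1 overlapped both, its replicate 3 reaching into the Th1 range and its replicates 1 and 2 lying near the highest Th17 library. The log2 difference of Th1 minus Th17 was 0.85 (SE 0.22, limma adjusted p = 0.014), and 0.78 without Th1 replicate 3 (limma adjusted p = 0.051). The other H3K4 eraser with a call was Kdm1a, which fell in Th1 at 24.1 ± 3.04 FPKM against 31.6 ± 1.68 FPKM in Th17 (SD, n = 3 each, log2 difference -0.38, limma adjusted p = 0.021). That call was lost without Th1 replicate 3 or Th17 replicate 2 or 3 (limma adjusted p 0.053 to 0.079) and after median-ratio scaling (limma adjusted p = 0.10).

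Kdm2b, Kdm4a and Kdm5a were not called. Kdm2b was at 29.0, 14.4 and 21.6 FPKM in the Th1 libraries, the widest spread within a group among the demethylases, against 14.03 to 15.4 FPKM in Th17. Kdm4a ranged from 20.7 to 32.9 FPKM and Kdm5a from 10.3 to 14.7 FPKM.

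**Figure D4:**
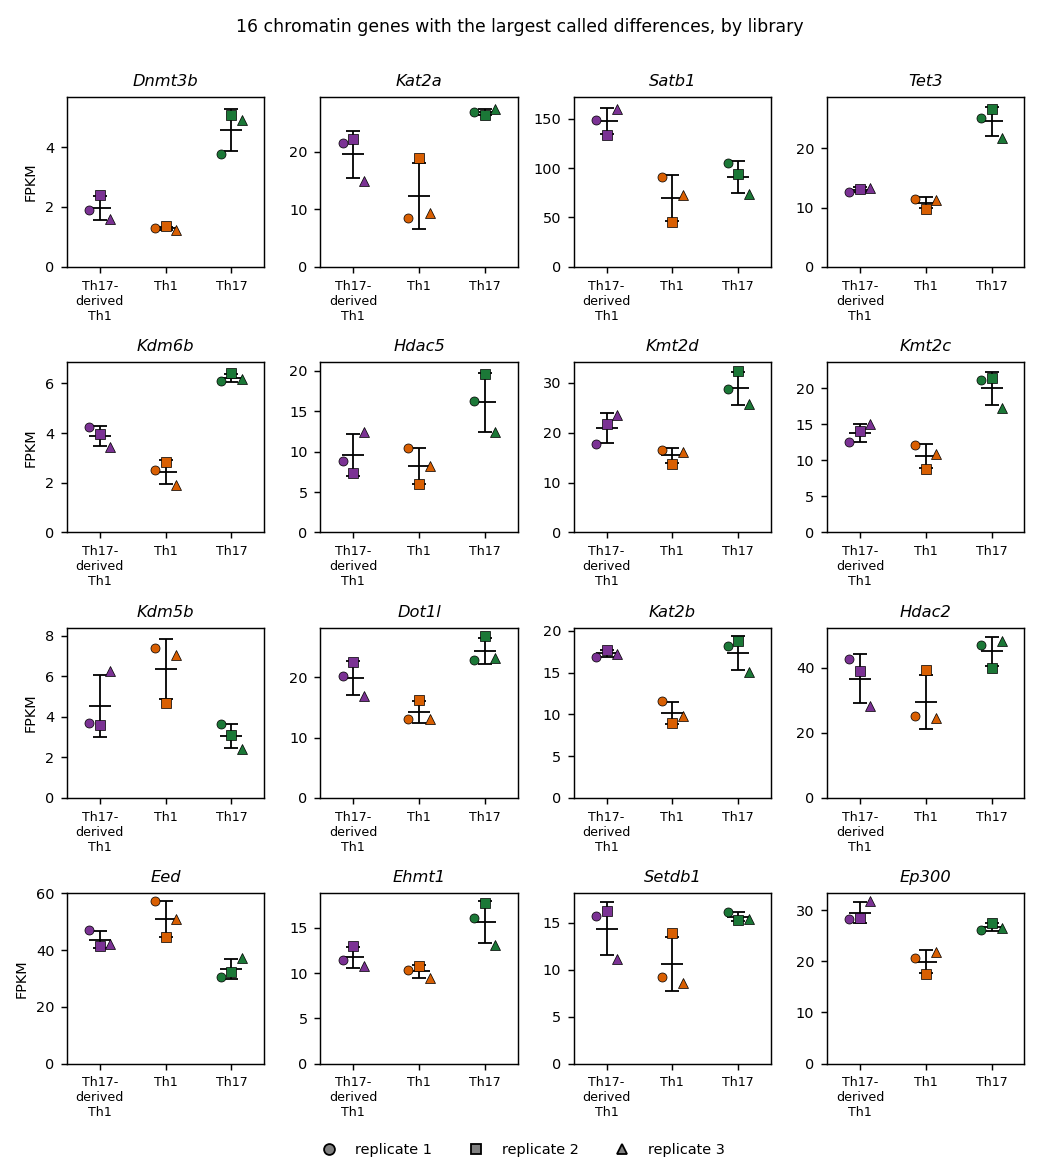
FPKM of 16 members in each library (y axis, FPKM, own scale per panel), with points for the 3 libraries of each group and a black line with error bar for the mean ± SD. Th17 libraries lie above all others for Dnmt3b, Tet3, Kdm6b, Kmt2c, Kmt2d, Ehmt1, Dot1l and Kat2a, and Th17-derived Th1 libraries lie above all others for Satb1 and Ep300.

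Of the 7 deacetylases, Hdac2, Hdac5 and Sirt1 (42.9%) fell in Th1 against Th17, beside 28.9% of all tested genes. In the other comparisons 0 were called, and only Hdac5 kept its call after median-ratio scaling. Hdac1, at 90.7 to 111.1 FPKM, was the most abundant and its 3 group means were within 98.98 to 101.5 FPKM. Hdac5, a class IIa enzyme, was at 8.88, 7.37 and 12.5 FPKM in Th17-derived Th1, 10.5, 6.02 and 8.21 FPKM in Th1, and 16.2, 19.6 and 12.4 FPKM in Th17. Th1 lay below Th17 without overlap, while the highest Th17-derived Th1 library was just above the lowest Th17 library. Hdac5 fell in Th1 (log2 difference -0.90, SE 0.24, limma adjusted p = 0.015), with -0.75 and a limma adjusted p of 0.060 without Th17 replicate 2.

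Hdac2, the class I partner of Hdac1, was at 42.7, 39.0 and 28.2 FPKM in Th17-derived Th1, 25.2, 39.2 and 24.5 FPKM in Th1, and 47.0, 40.0 and 48.2 FPKM in Th17. Th1 replicate 2 reached almost the lowest Th17 library, and Th17-derived Th1 overlapped both groups. Hdac2 fell in Th1 (log2 difference -0.62, SE 0.20, limma adjusted p = 0.036). The call was lost without Th17-derived Th1 replicate 2, Th1 replicate 1 or 3, or any 1 Th17 replicate (limma adjusted p 0.051 to 0.12), and after median-ratio scaling (limma adjusted p = 0.088). Sirt1, an NAD-dependent deacetylase, fell in Th1 at 12.3 ± 1.36 FPKM against 17.1 ± 0.71 FPKM in Th17 (SD, n = 3 each, log2 difference -0.45, limma adjusted p = 0.0082). That call was lost after median-ratio scaling (-0.29, limma adjusted p = 0.0502). Hdac3, Hdac4 and Hdac7 were not called, with ranges of 26.4 to 35.0 FPKM, 6.94 to 11.3 FPKM and 19.6 to 46.3 FPKM.

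All 4 acetyltransferases fell in Th1 against Th17, where 28.9% of all tested genes did. After median-ratio scaling the calls of Kat2a and Kat2b held there, and those of Ep300 and Crebbp did not. In Th17-derived Th1 against Th1, 2 of the 4, Kat2b and Ep300, rose, where 5.67% of all genes did. Kat2b (PCAF, GRCm38 chr17:53566861-53672720, plus strand) was at 16.8, 17.7 and 17.3 FPKM in Th17-derived Th1, 11.5, 8.98 and 9.84 FPKM in Th1, and 18.2, 18.7 and 15.1 FPKM in Th17. Th1 was below both other groups, which overlapped each other. Kat2b fell in Th1 against Th17 (log2 difference -0.72, SE 0.12, limma adjusted p = 0.0016) and rose in Th17-derived Th1 against Th1 (0.72, SE 0.12, limma adjusted p = 0.0063), both under every alternative run. Its log2 difference between Th17-derived Th1 and Th17 was 0.00 (SE 0.12).

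Ep300 (p300), which acetylates histones at enhancers, was at 28.2, 28.5 and 31.9 FPKM in Th17-derived Th1, 20.6, 17.4 and 21.8 FPKM in Th1, and 26.1, 27.6 and 26.4 FPKM in Th17. Th1 libraries were below all others and Th17-derived Th1 libraries above all others. Ep300 rose in Th17-derived Th1 against Th1 (log2 difference 0.55, SE 0.10, limma adjusted p = 0.011) and fell in Th1 against Th17 (-0.41, SE 0.10, limma adjusted p = 0.011). The first held without any 1 library and in every scaling, but not without replicate 3 of every group (0.56, limma adjusted p = 0.052). The second was -0.25 after median-ratio scaling, with a limma adjusted p of 0.12.

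Kat2a (GCN5), the paralog of Kat2b, was at 21.6, 22.3 and 14.9 FPKM in Th17-derived Th1, 8.56, 18.9 and 9.44 FPKM in Th1, and 27.0, 26.4 and 27.5 FPKM in Th17. Th17 libraries were above all others, and Th1 replicate 2 was at about the level of Th17-derived Th1. Kat2a fell in Th1 against Th17 (log2 difference -1.15, SE 0.26, limma adjusted p = 0.0077). That call was lost without replicate 3 of every group (-1.005, limma adjusted p = 0.061). The Kat2a difference of 0.69 between Th17-derived Th1 and Th1 did not pass (limma adjusted p = 0.13). Without Th1 replicate 2 that difference passed. Crebbp (CBP), the paralog of Ep300, fell in Th1 at 6.78 ± 1.13 FPKM against 9.62 ± 1.203 FPKM in Th17 (SD, n = 3 each, log2 difference -0.45, limma adjusted p = 0.025). It did not pass without Th1 replicate 2 or 3 or Th17 replicate 1 or 2 (limma adjusted p 0.055 to 0.095), nor after median-ratio scaling (limma adjusted p = 0.14).

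Satb1, which folds chromatin and is known for its role in T cell development, had the highest level and the largest rise among the members in Th17-derived Th1. It was at 148.4, 133.4 and 160.1 FPKM in Th17-derived Th1, 91.2, 45.7 and 72.3 FPKM in Th1, and 104.9, 94.3 and 73.4 FPKM in Th17. Every Th17-derived Th1 library was above every other library, whereas Th1 and Th17 overlapped. Satb1 rose against Th1 (log2 difference 1.12, SE 0.23, limma adjusted p = 0.018), and its difference of 0.70 from Th17 did not pass (SE 0.23, limma adjusted p = 0.070). The rise was lost without Th17-derived Th1 replicate 1 or 2 or Th1 replicate 3 (limma adjusted p 0.057 to 0.071, log2 difference 1.11 to 1.19). Without Th1 replicate 2, the lowest Th1 library, Satb1 was also called higher in Th17-derived Th1 than in Th17.

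Among the remodelling subunits, Arid1a of the BAF complex fell in Th1 at 41.98 ± 3.82 FPKM against 53.8 ± 2.07 FPKM in Th17 (SD, n = 3 each, log2 difference -0.35, limma adjusted p = 0.012). The call was lost without Th17 replicate 2 (-0.32, limma adjusted p = 0.052) and after median-ratio scaling (-0.19, limma adjusted p = 0.16). The ATPases Smarca4 of BAF and Chd4 of NuRD were abundant and steady, at 42.3 to 57.5 FPKM and 81.9 to 105.6 FPKM, with no call.

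**Figure D5:**
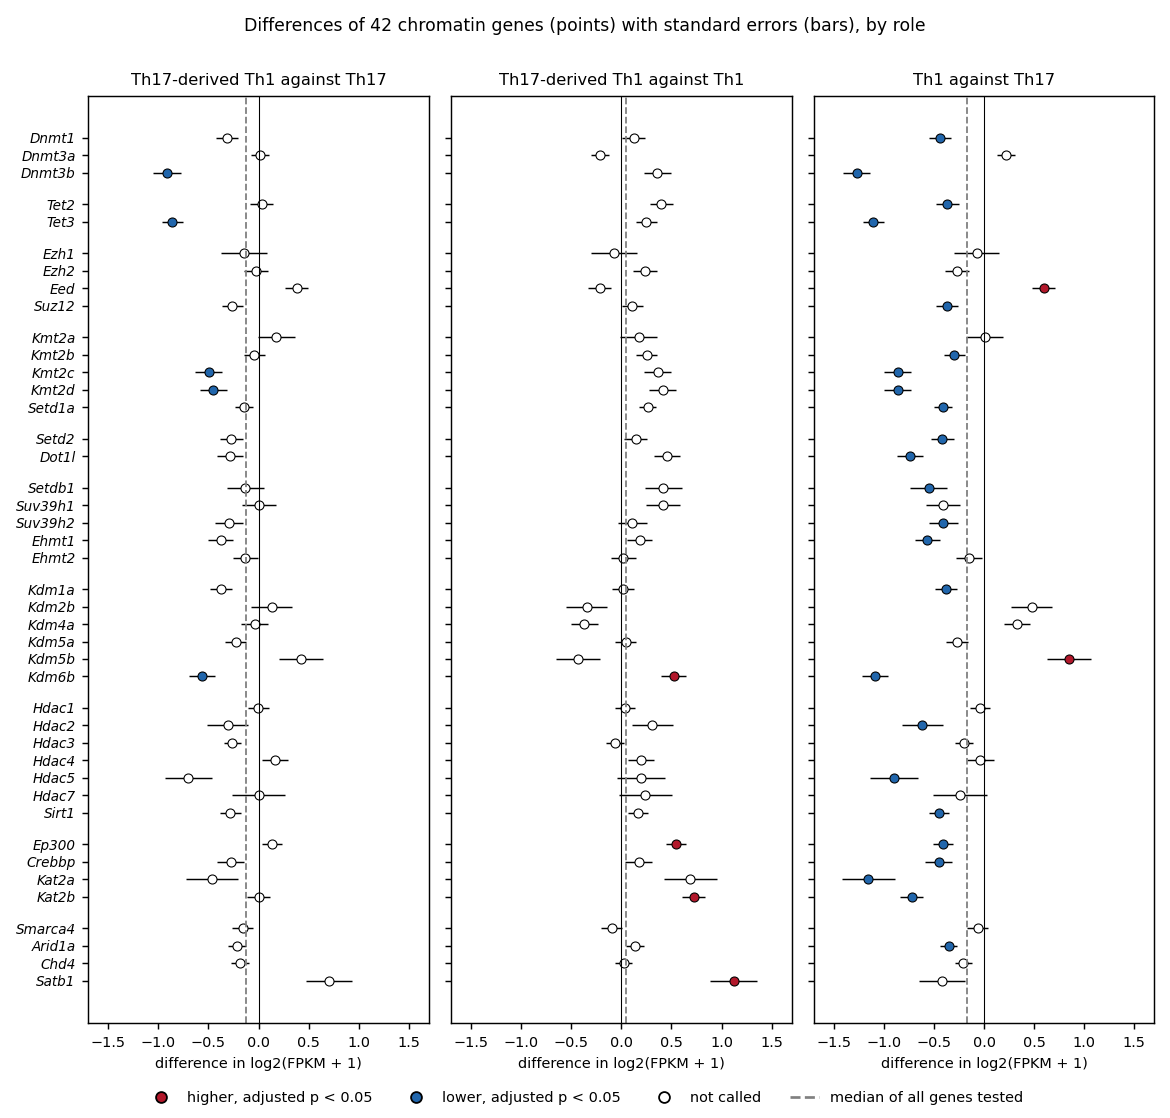
log2 difference ± SE of the 42 tested members in the 3 comparisons (x axis, log2 units of FPKM + 1), with filled points for members called by limma and a dashed line at the median of all tested genes. In Th1 against Th17 the points run from -1.27 (Dnmt3b) to 0.85 (Kdm5b), with 36 of 42 below 0, beside 6880 of 10538 genes. In Th17-derived Th1 against Th1 the points reach 1.12 (Satb1), with 34 of 42 above 0, beside 6095 of 10538 genes.

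Of the 35 calls of a member in a comparison, 13 held under every alternative in which the member was tested, 17 held without any 1 library, and 20 held in every scaling. The 13 were Dnmt3b and Tet3 in Th17-derived Th1 against Th17, Kat2b in Th17-derived Th1 against Th1, and Dnmt3b, Tet3, Eed, Kmt2c, Kmt2d, Setd1a, Dot1l, Ehmt1, Kdm6b and Kat2b in Th1 against Th17. In every alternative, the called members kept the sign of their difference.

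The members have long transcripts. Their median length was 5911 bases for the 42 tested, and 3049 bases for 10515 tested genes with a transcript in GENCODE M21. Among all genes with transcripts above 4980 bases, 38% were lower in Th1 than in Th17, against 26.7% of the rest. Of the 23 members above that length 60.9% were lower, and of the other 19 members 52.6%. The part of transcript length in the calls was not tested.

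Lists of 191 other chromatin genes in 10 groups, of which 183 were tested, were counted in the same fit. In Th1 against Th17, 90 fell and 6 rose, or 49.2% and 3.28%, beside 28.9% lower and 14% higher of all tested genes. In Th17-derived Th1 against Th17, 17 fell and 6 rose, or 9.29% and 3.28%, beside 9.49% and 6.43% of all genes, so the lower share was at the background. In Th17-derived Th1 against Th1, 9 rose and 0 fell, and the 4.92% that rose are below the 5.67% of all genes called higher. After median-ratio scaling, 41 were lower and 10 higher in Th1 against Th17, or 22.4% and 5.46%, beside 16.6% and 19.4% of all genes. The same scaling gave 6 lower and 8 higher in Th17-derived Th1 against Th17, or 3.28% and 4.37% beside 4.73% and 8.09% of all genes. It gave 1 lower and 9 higher in Th17-derived Th1 against Th1, or 0.546% and 4.92% beside 5.84% and 4.87% of all genes. The DNA replication and cell cycle list had 5 of its 30 genes lower and 1 higher in Th1 against Th17. These are 16.7% and 3.33%, below the 28.9% and 14% of all genes. Its median log2 difference there was -0.22, beside -0.17 for all genes. In the other comparisons at most 1 gene of that list, or 3.33%, was called per direction.

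Around DNA methylation, Gadd45g, which is linked to active demethylation, was the strongest of these genes. It was at 202.2 ± 21.2 FPKM in Th17-derived Th1, 242.8 ± 19.4 FPKM in Th1 and 45.9 ± 19.7 FPKM in Th17 (SD, n = 3 each), and rose against Th17 in both (log2 difference 2.19 and 2.45, limma adjusted p = 0.00064 and 0.00014). Ahcy, which clears the by-product of methyl transfer, rose with it, at 118.7 ± 7.01 FPKM in Th17-derived Th1, 126.6 ± 5.97 FPKM in Th1 and 63.5 ± 9.42 FPKM in Th17 (SD, n = 3 each). Mat2a, which makes the methyl donor, fell in Th1 at 42.01 ± 17.9 FPKM against 86.4 ± 6.19 FPKM in Th17 (SD, n = 3 each, limma adjusted p = 0.018). Idh2, a mitochondrial source of the 2-oxoglutarate that TET and JmjC enzymes use, was at 14.3 ± 1.65 FPKM in Th17-derived Th1, 5.93 ± 1.28 FPKM in Th1 and 18.3 ± 3.03 FPKM in Th17 (SD, n = 3 each). It rose in Th17-derived Th1 against Th1 (limma adjusted p = 0.0046) and fell in Th1 against Th17 (limma adjusted p = 0.00032).

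Among Polycomb partners, Cbx7, which binds the H3K27 mark, was at 22.1 ± 2.45 FPKM in Th17-derived Th1, 9.49 ± 3.05 FPKM in Th1 and 28.1 ± 5.68 FPKM in Th17 (SD, n = 3 each). It rose in Th17-derived Th1 against Th1 (log2 difference 1.17, limma adjusted p = 0.011) and fell in Th1 against Th17 (-1.49, limma adjusted p = 0.00092). Pcgf2 fell against Th17 in Th17-derived Th1 (log2 difference -0.77) and in Th1 (-0.83). Aebp2, an accessory subunit of PRC2, rose against Th17 in both (0.50 and 0.33), the same direction as Eed in Th1. Of the H3K4 partners, Ash2l fell against Th17 in Th17-derived Th1 (log2 difference -0.56, limma adjusted p = 0.017) and in Th1 (-0.63, limma adjusted p = 0.0040), and Wdr5 fell in Th1 (-0.63, limma adjusted p = 0.021).

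Deacetylases outside the member list showed both directions. Sirt2 was at 65.1 ± 9.92 FPKM in Th17-derived Th1, 83.7 ± 20.7 FPKM in Th1 and 33.1 ± 2.20 FPKM in Th17 (SD, n = 3 each), and rose against Th17 in both (log2 difference 0.95 and 1.28, limma adjusted p = 0.0091 and 0.00089). Hdac10 was at 3.25 ± 0.15 FPKM in Th17-derived Th1, 3.79 ± 0.50 FPKM in Th1 and 8.85 ± 0.61 FPKM in Th17 (SD, n = 3 each), and fell against Th17 in both (log2 difference -1.21 and -1.04, limma adjusted p = 0.00022 and 0.00020). In the chromatin architecture list 11 of 12 genes, or 91.7%, fell in Th1 against Th17, where 28.9% of all tested genes did, with Hmgb1 at 44.5 ± 3.16 FPKM in Th1 and 78.0 ± 2.94 FPKM in Th17 (SD, n = 3 each, log2 difference -0.80, limma adjusted p = 0.00035). After median-ratio scaling that count was 4 of 12, or 33.3%, beside 16.6% of all genes.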

How the data were processed

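The table the authors deposited holds FPKM values of 22017 gene symbols. HISAT2, DESeq2 and the mm10 genome build appear in the submitters' processing notes. Their versions, the gene annotation and the handling of reads with more than 1 match were not given in the sources used here. FPKM holds no counts, so depth is unknown and no counting interval is given. It depends on library composition, so scaling was varied. Sample titles gave the groups and replicate numbers.

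Values were tested as log2(FPKM + 1), which understates differences of low genes, with limma (version 3.58.1, R 4.3.3, mean-variance trend). Genes entered if 3 or more libraries reached 1 FPKM. The spread was estimated over all 9 libraries (6 residual degrees of freedom), and tests were two-sided with Benjamini-Hochberg adjustment. Ratios used exact permutation tests. The fit was tested on simulated data. Alternatives were a replicate block, pseudocounts, filters, scalings, fits of 2 groups, array weights, robust moderation, a threshold of 0.01 and left-out libraries. Per-library values are given for the 16 members with the largest called difference, and up to 2 called genes per direction and comparison were named from each other list. The members and lists were chosen with earlier results of these data known. Python 3.11.15, pandas 2.3.3 and matplotlib 3.10.9 were used, with GENCODE M21 lengths.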

Additional observations from a re-analysis of the deposited data

How the results depend on the processing

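Counts of members are given as lower and higher. In Th17-derived Th1 against Th17 (5 and 0 as reported), 3 were lower with no filter, or 6.98%, beside 6.02% of all genes. Median-ratio scaling gave 3 lower and 1 higher, with the shares given above. Quantile normalization gave 4 and 1, or 9.52% and 2.38%, beside 5.8% and 7.2% of all genes. A fit of these groups only gave 5 and 2, or 11.9% and 4.76%, beside 10.6% and 7.64%. Array weights gave 17 and 2, or 40.5% and 4.76%, beside 28.7% and 15%. The threshold of 0.01 left 2 lower, or 4.76%, beside 3%. In Th17-derived Th1 against Th1 (0 and 4), array weights gave 5 and 19, or 11.9% and 45.2%, beside 19.1% and 32.4% of all genes. The threshold of 0.01 left 1 higher, or 2.38%, beside 1.8% of all genes. In Th1 against Th17 (24 and 2), median-ratio scaling gave 11 and 5, with the shares given above. Quantile normalization gave 17 and 5, or 40.5% and 11.9%, beside 20.2% and 17% of all genes. Array weights gave 30 and 5, or 71.4% and 11.9%, beside 46.3% and 21.2%. The threshold of 0.01 gave 11 and 1, or 26.2% and 2.38%, beside 15% and 8.59%. Without replicate 3 of every group, chosen after seeing the data because these libraries held the most Cd8a, 2 were lower in the first comparison, 1 was higher in the second, and 12 and 1 were called in the third. These are 4.76%, 2.38%, and 28.6% and 2.38% of the members, beside 5.09%, 2.83%, and 18.7% and 11.2% of all genes. The causes of these changes in the counts were not tested.

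With 1 library left out, counts were 2 to 9 lower and 0 to 2 higher, 0 to 2 lower and 2 to 7 higher, and 15 to 26 lower and 1 to 4 higher in the same order of comparisons. The shares of all genes called ran from 2.9% to 13.9% lower and 3.63% to 8.49% higher in the first comparison. They ran from 1.14% to 7.58% and 1.86% to 10.2% in the second. In the third they ran from 18.6% to 35.7% and 10.1% to 15.9%. The labels do not say that a replicate number marks a shared batch. Deviations from group means correlated at -0.178 to 0.659 over 9 same-numbered pairs, with 4 above 0.1, and at -0.646 to 0.459 over 18 differently numbered pairs, also with 4 above 0.1. The same-numbered library was the best correlated in 9 of 18 cases, so pairing was not taken as shown, although replicate 3 of every group held more Cd8a. A replicate block gave 4 and 0, 0 and 5, and 22 and 2. The shares of all genes were 8.88% and 7.07%, 5.89% and 6.02%, and 28.2% and 14.1%. In the first comparison the block ended the calls of Kmt2c (limma adjusted p = 0.060) and Kmt2d (0.076) and added Ehmt1. In the second it added Dot1l. In the third it ended the calls of Kmt2b (limma adjusted p = 0.077) and Suv39h2 (0.064). The log2 ratio of Suv39h1 to Suv39h2 in Th1 minus Th17 was 0.077 at a pseudocount of 0.1, against -0.004 at 1, and ranged from -0.073 to 0.038 with 1 library left out. Other ratios whose sign turned with 1 library left out, none of them apart between groups, were Ezh2 to Ezh1 in Th17-derived Th1 minus Th17 (-0.082 to 0.438), Kat2a to Kat2b in Th17-derived Th1 minus Th1 (-0.32 to 0.374), and Hdac1 to Hdac7 in all 3 (-0.142 to 0.238, -0.428 to 0.192 and -0.198 to 0.422). Depth is unknown, and with 3 libraries a group an exact test of a ratio cannot pass 0.05.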
